A study of Mus musculus with 8 samples.

Results

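The Notch genes described here were 10 mouse genes: 4 ligands (Dll1, Dll3, Dll4, Jag1), the receptor Notch1, the receptor-modifying glycosyltransferase Mfng, and 4 bHLH repressors (Hes1, Hes5, Hes6, Hey1). They were taken by symbol from a count table of 37558 Ensembl genes, and all 10 were found. They were read in 8 libraries, 1 per group and so without replicates, prepared by oligo-dT selection from P19, a mouse embryonal carcinoma line able to form neurons and muscle. The study asked what a lineage factor's bHLH domain contributes to the lineage it drives. Lentivirus carried GFP (the control), MyoD (the muscle factor), NeuroD2 (a neuronal factor), or MD(ND2bHLH), a chimera of MyoD with the bHLH domain of NeuroD2. Further libraries came from the mutants MD(ND2bHLH)WC and MD(ND2bHLH)WCS, called WC and WCS here, whose changes the labels do not define. For the chimera and WCS a second library is labelled with a multiplicity of infection (MOI, infectious virus particles per cell) of 100. The labels state no MOI for the other 6. Polybrene was used in every infection, and all cultures were moved to Neurobasal medium with B27 48 hours after infection, so GFP cells were in a neuronal medium too. The sources used here give neither the promoter of the delivered factor, nor the share of cells infected, nor which libraries came from RNeasy and which from Trizol RNA.

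Notch signalling is a contact between neighbouring cells in which a membrane ligand on the sender cuts loose the intracellular part of the receptor on the receiver. That fragment joins the DNA-binding protein RBPJ in the nucleus and turns on Hes and Hey genes, whose bHLH (basic helix-loop-helix) repressors hold back proneural genes. In the developing nervous system proneural bHLH factors raise Delta ligands in cells that become neurons, and Notch in their neighbours keeps those as progenitors. The same pathway restrains myoblasts from becoming muscle fibres.

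Library totals ran from 26410500 to 43984066 counts. Levels are CPM, counts scaled to library size with TMM factors over the 8 libraries, and the intervals beside ratios cover counting error only, since no second culture was measured. Delivered Myod1 stood at 296 CPM in MyoD, 77.3 to 116 CPM in the chimera, WC and WCS, and 555 and 857 CPM in the chimera and WCS at MOI 100. The level of the delivered transcript thus differed together with the construct in several comparisons. All 6 pluripotency markers stood at 1 CPM or more in GFP, with a summed level of 2661 CPM, against 390 to 1152 CPM elsewhere. Pou5f1 (1227 CPM) and Lin28a (1093 CPM) made up most of the GFP sum. Sox2 did not follow it, at 124 CPM in GFP, 95.7 in MyoD, 131 in NeuroD2, 158 in the chimera and 108 in the chimera at MOI 100. In WC, WCS and WCS at MOI 100 Sox2 was at 181, 205 and 126 CPM. The summed level of 6 neuron markers was 276 CPM in GFP, 238 in MyoD, 680 in the chimera, 1651 in WC, 1852 in WCS, 2282 in the chimera at MOI 100, 2896 in NeuroD2 and 4319 in WCS at MOI 100. The 6 skeletal muscle markers summed to 9638 CPM in MyoD, 989 and 1633 CPM in the chimera libraries, and 16.2 to 49.5 CPM elsewhere. In bulk RNA such as this, fewer cells of a type and less RNA per cell cannot be told apart. The libraries also split by the 7S RNA gene Rn7s6, whose level ranged from 0.565 to 1.28 CPM in NeuroD2, the chimera and both libraries at MOI 100 but was 13.0 CPM or more in GFP, MyoD, WC and WCS. That split crosses several of the comparisons.

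The promoters of members that were high with different factors are shown to set their E-boxes (CANNTG, the site that bHLH dimers bind) beside the levels. RefSeq windows on GRCm38.p6, running from 250 bases before to 50 bases after an annotated start, matched 7 of the 10 members with 9 windows. Hes1, Hey1 and Mfng had no entry. Capitals mark CANNTG and the RBPJ core TGGGAA, both read on either strand, in the windows of Dll1 (chr17:15376883-15377182, minus strand, the upstream of its windows), Dll3 (chr7:28301736-28302035, minus strand), Hes5 (chr4:154960673-154960972, plus strand) and Hes6 (chr1:91413989-91414288, minus strand, the upstream of its windows).
Dll1: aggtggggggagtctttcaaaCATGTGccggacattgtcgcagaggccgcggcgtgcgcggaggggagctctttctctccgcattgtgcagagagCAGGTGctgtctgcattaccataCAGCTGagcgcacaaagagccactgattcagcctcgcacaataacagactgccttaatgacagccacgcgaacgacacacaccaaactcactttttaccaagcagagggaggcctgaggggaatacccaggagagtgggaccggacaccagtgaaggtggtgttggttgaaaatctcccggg
Dll3: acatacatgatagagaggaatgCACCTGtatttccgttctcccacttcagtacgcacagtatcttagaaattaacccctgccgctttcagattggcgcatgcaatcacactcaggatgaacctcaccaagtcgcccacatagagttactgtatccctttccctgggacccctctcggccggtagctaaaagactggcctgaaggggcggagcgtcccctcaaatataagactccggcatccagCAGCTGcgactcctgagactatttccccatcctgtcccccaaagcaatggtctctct
Hes5: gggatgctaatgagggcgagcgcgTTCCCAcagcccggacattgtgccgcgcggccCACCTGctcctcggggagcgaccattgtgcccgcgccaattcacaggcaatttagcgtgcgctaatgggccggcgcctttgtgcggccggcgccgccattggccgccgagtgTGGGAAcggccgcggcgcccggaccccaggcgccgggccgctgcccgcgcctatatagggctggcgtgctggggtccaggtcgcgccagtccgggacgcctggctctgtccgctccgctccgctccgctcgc
Hes6: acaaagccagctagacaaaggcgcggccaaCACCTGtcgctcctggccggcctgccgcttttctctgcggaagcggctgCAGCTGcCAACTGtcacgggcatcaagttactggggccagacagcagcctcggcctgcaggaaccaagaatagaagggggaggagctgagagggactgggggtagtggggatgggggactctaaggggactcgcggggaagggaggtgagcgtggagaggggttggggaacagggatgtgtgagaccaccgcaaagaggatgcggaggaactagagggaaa
In these windows Dll1, Dll3 and Hes6 each held both a CAGCTG and a CAGGTG (read as CACCTG on the other strand). The CAGCTG of Dll3 began at -7 from the annotated start, while those of Dll1 and Hes6 began at -132 and -171. The pair was absent from the windows not shown. The other Dll1 window held neither form, only a CATTTG, and the other Hes6 window held a CAGCTG but no CAGGTG. The Hes5 window held 2 TGGGAA cores, and no other member window held any, against 25.6% of all 32851 promoter windows. Over the 9 member windows 5 held CAGCTG (16.3% of all promoters), 4 held CAGGTG (20.2%) and 0 held CAGATG (17.2%). CACGTG was in 0 of 9 (7.15%), and the N-box CACNAG, a site of Hes repressors, in 4 of 9 (42.5%). The Dll4 and Notch1 windows held no CANNTG, against 72.3% of all promoters with at least 1. The E-box forms with their inner bases spelled out also count as CANNTG, and all motifs were read on both strands. A match describes letters only.

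Among the ligands, Dll1 was higher in every library with a bHLH factor, whereas Dll3 and Dll4 were no higher in MyoD than in GFP. Dll1 encodes the Delta ligand that activates Notch on neighbouring cells. It stood at 33.5 CPM in GFP, 127 in MyoD, 131 in NeuroD2, 251 in the chimera, 284 in the chimera at MOI 100, 218 in WC, 219 in WCS and 169 in WCS at MOI 100. MyoD and NeuroD2 thus carried nearly equal levels (ratio of NeuroD2 to MyoD 1.03, interval 0.978 to 1.07), and both lay below all 5 chimera and mutant libraries. The chimera held 1.97-fold more Dll1 than MyoD (1.89 to 2.05) and 1.92-fold more than NeuroD2 (1.85 to 2.0).

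Dll3 encodes a divergent Delta protein that acts inside the cell and blocks Notch rather than activating it. Its levels were 2.24 CPM in GFP, 1.77 in MyoD, 27.5 in NeuroD2, 9.72 in the chimera, 9.61 in the chimera at MOI 100, 44.9 in WC, 45.7 in WCS and 16.8 in WCS at MOI 100. The WC and WCS libraries were highest, above NeuroD2 by 1.63-fold for WC (1.495 to 1.78), and GFP and MyoD could not be told apart by counting error. Dll3 was 15.6-fold lower in MyoD than in NeuroD2 (11.6 to 21.4).

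Dll4, a Delta ligand best known from blood vessels, also marks some spinal interneuron progenitors. It stood at 1.56 CPM in GFP, 0.538 in MyoD, 45.3 in NeuroD2, 6.74 in the chimera, 16.2 in the chimera at MOI 100, 11.5 in WC, 14.6 in WCS and 39.0 in WCS at MOI 100. NeuroD2 and WCS at MOI 100 were highest, and MyoD, with 14 counts, lay below GFP by 2.90-fold (1.61 to 5.59). The 6 endothelial markers summed to 1.49 to 3.89 CPM over the 8 libraries, and the highest single value was 2.04 CPM (Tek in GFP), so that list was near 0 where Dll4 was high. The neuron marker sum was lowest in MyoD and GFP, as Dll4 was, and highest in WCS at MOI 100 and NeuroD2, and its part in the Dll4 level was not tested. The gene Gm14207 overlaps 214 exon bases of Dll4 on the opposite strand and had 1 to 283 counts, low in MyoD and high in WCS at MOI 100 as Dll4 was. Since the strand setting of the counting is not given, reads of such a pair cannot be told apart.

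Jag1 encodes a Jagged ligand of the same receptors. It varied least of the ligands, at 30.7 CPM in GFP, 45.8 in MyoD, 75.9 in NeuroD2, 71.0 in the chimera, 82.1 in the chimera at MOI 100, 73.3 in WC, 76.8 in WCS and 73.3 in WCS at MOI 100. GFP was lowest and MyoD next, and the 6 others lay between 71.0 and 82.1 CPM, where of the 5 neighbouring pairs in rank only that of the chimera at MOI 100 and WCS differed beyond counting error.

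**Figure D1:**
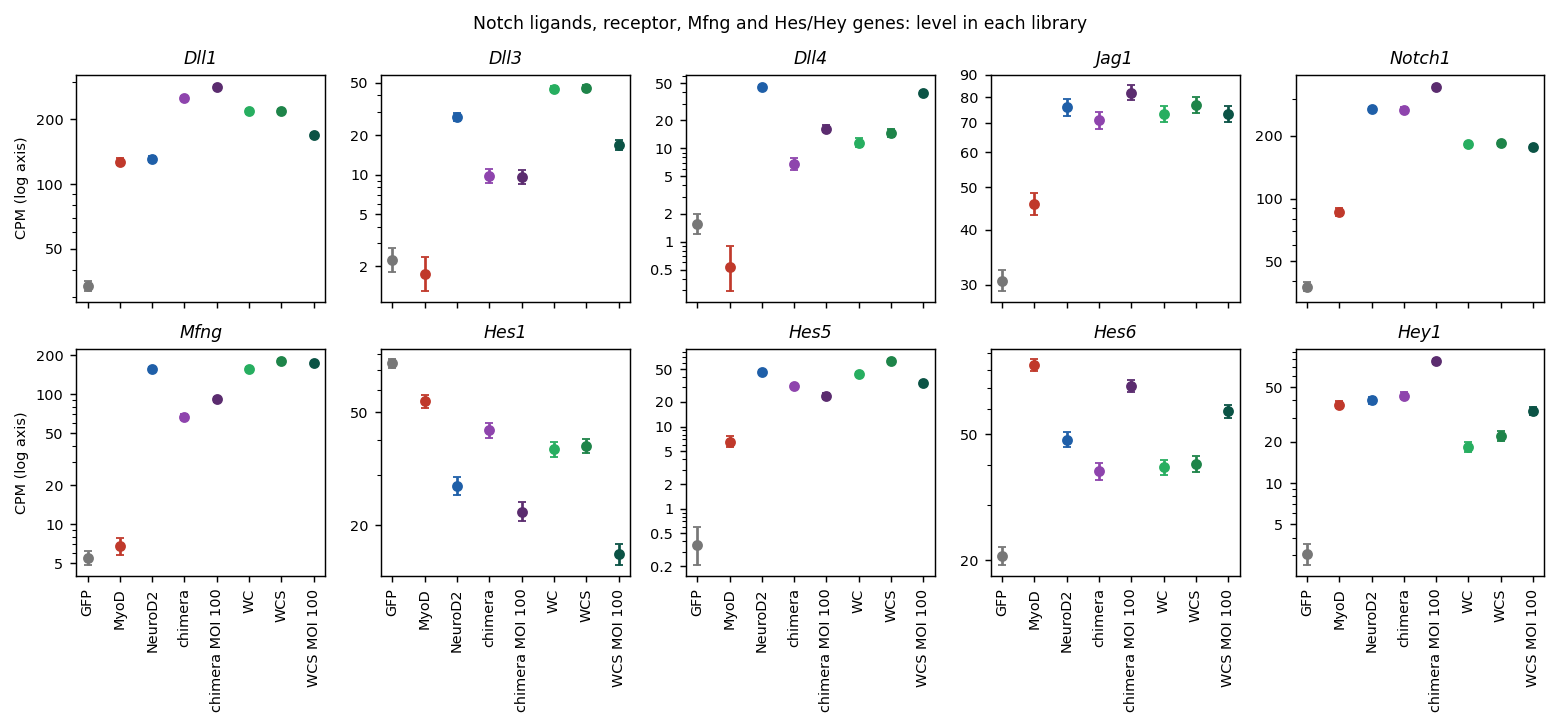
Level of each of the 10 genes in the 8 libraries, in CPM on a log axis with its own range in each panel; points are single libraries and bars are 95% Poisson counting intervals. GFP is the lowest library for Dll1, Jag1, Notch1, Mfng, Hes5, Hes6 and Hey1 and the highest for Hes1, and MyoD is the lowest for Dll3 and Dll4.

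The receptor Notch1 was higher in all 7 factor libraries and highest in the chimera at MOI 100. Its levels were 37.7 CPM in GFP, 86.1 in MyoD, 270 in NeuroD2, 267 in the chimera, 345 in the chimera at MOI 100, 182 in WC, 184 in WCS and 177 in WCS at MOI 100. The chimera and NeuroD2 were level (1.01-fold, 0.977 to 1.04), and WC, WCS and WCS at MOI 100 formed a lower step. Neighbours in rank within that step did not differ beyond counting error. Its ends did, with WCS at MOI 100 at 0.960 of WCS (0.925 to 0.997). MyoD was 2.28-fold above GFP (2.14 to 2.43) and 3.14-fold below NeuroD2 (2.99 to 3.29). The opposite-strand genes 0610009E02Rik and Gm13568 overlap 1068 and 414 exon bases of Notch1 and had 80 to 1266 and 18 to 312 counts, each lowest in GFP and highest in the chimera at MOI 100, as Notch1 was.

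Mfng, Manic fringe, adds sugar to Notch in the Golgi and shifts which ligands the receptor answers. It stood at 5.52 CPM in GFP, 6.80 in MyoD, 156 in NeuroD2, 67.0 in the chimera, 91.3 in the chimera at MOI 100, 158 in WC, 182 in WCS and 174 in WCS at MOI 100. The 8 libraries fell into 3 levels, with GFP and MyoD low, the chimera pair between, and NeuroD2 with the mutants high. The chimera was 9.86-fold above MyoD (8.44 to 11.6), and NeuroD2 was 2.34-fold above the chimera (2.21 to 2.47).

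Of the repressors, Hes1 went against the rest. Hes1 is expressed in pluripotent and progenitor cells and represses proneural genes. It stood at 74.1 CPM in GFP, 54.6 in MyoD, 27.5 in NeuroD2, 43.1 in the chimera, 22.3 in the chimera at MOI 100, 36.9 in WC, 38.0 in WCS and 15.8 in WCS at MOI 100. Every factor library lay below GFP, by 1.36-fold in MyoD (1.28 to 1.45) up to 4.69-fold in WCS at MOI 100 (4.27 to 5.17). The 2 libraries at MOI 100 were lowest, and they also held the lowest summed pluripotency markers, 390 CPM in the chimera at MOI 100 and 424 CPM in WCS at MOI 100. Of these markers Sox2 did not follow the sum and was lowest in MyoD, at 95.7 CPM. The part of the pluripotency markers in the Hes1 level was not tested.

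Hes5 is the Notch target most tied to neural progenitors. It had 15 counts in GFP, or 0.365 CPM, and stood at 6.57 CPM in MyoD, 46.1 in NeuroD2, 31.3 in the chimera, 23.7 in the chimera at MOI 100, 43.8 in WC, 63.6 in WCS and 33.9 in WCS at MOI 100. WCS was highest, 1.38-fold above NeuroD2 (1.28 to 1.48), and MyoD lay 18.0-fold above GFP (10.6 to 32.9) while 7.02-fold below NeuroD2 (5.99 to 8.29). WC and WCS, close for most members, differed here, with 1.45-fold more in WCS (1.35 to 1.56). Gm20421, which overlaps 433 exon bases of Hes5 on the opposite strand, had 10 counts in GFP, 90 in MyoD, 678 in NeuroD2, 441 in the chimera, 358 in the chimera at MOI 100, 700 in WC, 946 in WCS and 508 in WCS at MOI 100. Its highest and lowest libraries were those of Hes5.

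Hes6 is a family member generally not induced by Notch, and it antagonises Hes1 and promotes both neuronal and muscle differentiation. Its levels were 20.6 CPM in GFP, 82.8 in MyoD, 48.0 in NeuroD2, 38.3 in the chimera, 70.9 in the chimera at MOI 100, 39.3 in WC, 40.3 in WCS and 59.0 in WCS at MOI 100. Hes6 was the only member with its highest level in MyoD, 1.72-fold above NeuroD2 (1.61 to 1.85), in the library with the highest summed muscle markers. The chimera at MOI 100 came next in both. Actc1 (5163 CPM) and Myh3 (3060 CPM) made up most of the MyoD muscle sum. Myog, alone among the muscle markers, was highest in the chimera at MOI 100 (197 CPM) and not in MyoD (95.1 CPM). The chimera, whose muscle markers summed to 989 CPM, held less Hes6 than every library but GFP. The part of the muscle markers in the Hes6 level was not tested. The chimera, WC and WCS did not differ from neighbour to neighbour beyond counting error, between 38.3 and 40.3 CPM.

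Hey1, a Notch target known from vessels, somites and brain, stood at 3.02 CPM in GFP, 37.3 in MyoD, 40.2 in NeuroD2, 43.3 in the chimera, 77.0 in the chimera at MOI 100, 18.4 in WC, 22.05 in WCS and 33.5 in WCS at MOI 100. MyoD, NeuroD2 and the chimera were within 1.16-fold of each other, and the chimera over MyoD was 1.16 (1.07 to 1.27). WC and WCS lay below all 3 of them.

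The first comparison set each full-length factor against the GFP library. With no replicates no test was possible, and genes were counted by size instead: 4-fold or more on the log2(CPM + 0.5) scale, where the higher library reached 5 CPM or more. In MyoD, 2 of 8 members that reached 5 CPM, Hes5 and Hey1, were higher by this rule, where 3.63% of 11789 genes were. The call of Hes5 was lost with a pseudocount of 2 CPM, at a log2 ratio of 1.86. Hes6 (4.01-fold) and Dll1 (3.80-fold) lay just outside it, at 1.98 and 1.91 on that log2 scale, and Dll3 and Dll4 never reached 5 CPM. In NeuroD2, 6 of 10 were higher (Dll3, Dll4, Notch1, Mfng, Hes5 and Hey1), where 5.61% of 12126 genes were. Dll4 was 29.1-fold higher (22.6 to 38.0) and Mfng 28.3-fold (24.8 to 32.5). No member was 4-fold lower in either comparison, against 1.21% and 2.05% of genes. The median log2 ratio was 1.54 over the 8 members in MyoD and 3.09 over the 10 in NeuroD2. Over all genes tested the medians were -0.02 and 0.00. The MyoD median leaves out Dll3 and Dll4, whose log2 ratios there were -0.27 and -0.99. Both entered the NeuroD2 median through their level in NeuroD2, so the medians cover unlike sets of members. These comparisons share the GFP library. NeuroD2 over GFP crosses the Rn7s6 split and MyoD over GFP does not, and the part of the split was not tested.

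In the direct comparison of MyoD with NeuroD2, 4 of 10 members met the size rule, namely Dll3, Dll4, Mfng and Hes5. They were lower in MyoD, where 5.61% of 12226 genes were lower, and 0 were higher, where 3.35% of genes were. Dll4 showed the widest gap, 84.2-fold lower in MyoD (50.02 to 154), followed by Mfng at 23.0-fold (19.8 to 26.9). Dll1 and Hey1 had ratios of 0.975 (0.930 to 1.02) and 0.927 (0.850 to 1.01), and Hes1 and Hes6 were 1.99-fold (1.82 to 2.17) and 1.72-fold higher in MyoD. MyoD and GFP were alike in the Rn7s6 split and NeuroD2 was not. The part of that split in these ratios was not tested.

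**Figure D2:**
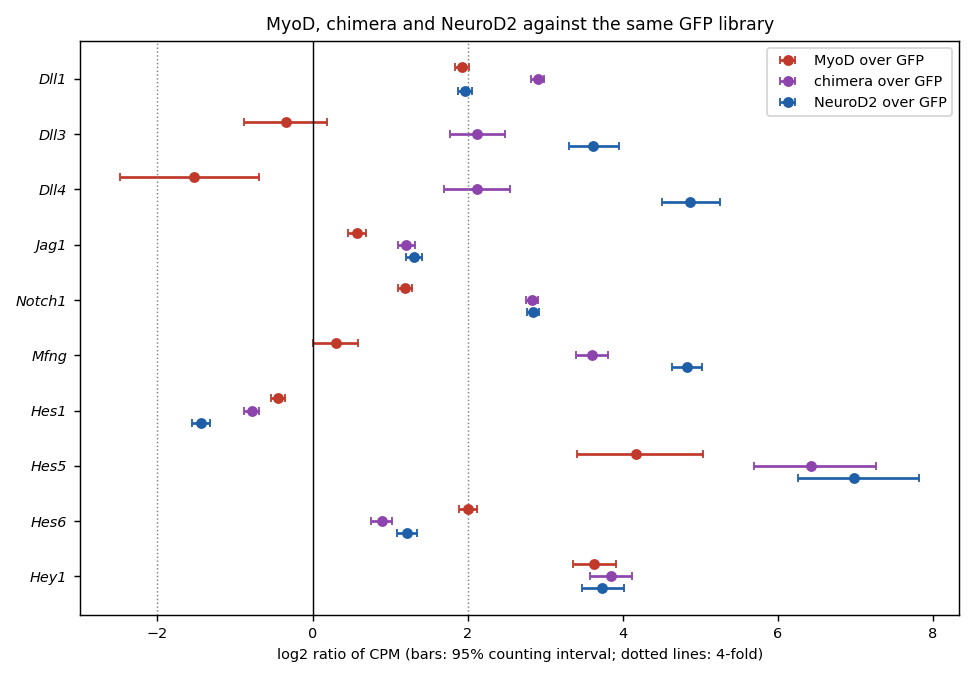
Log2 ratio of CPM over the GFP library for MyoD, the chimera and NeuroD2 (points, 1 library each), with 95% counting intervals as bars and dotted lines at 4-fold. MyoD lies at or below 0 for Dll3 and Dll4 and close to 0 for Mfng, the 3 series overlap for Hey1, and Hes1 lies below 0 in all 3.

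The chimera was then compared with GFP. It carried 5 of 10 members above the size rule, Dll1, Notch1, Mfng, Hes5 and Hey1, where 2.84% of 11846 genes were higher. Dll3 (4.34-fold, 3.41 to 5.57) and Dll4 (4.33-fold, 3.24 to 5.86) lay just outside the rule, at 1.90 and 1.82 on the log2(CPM + 0.5) scale. No member was 4-fold lower, against 0.945% of genes. For Dll3, Dll4, Mfng and Hes5, the 4 genes that separated MyoD from NeuroD2, the chimera lay between the 2 factors. By the size rule 4 members were higher than in MyoD and 0 lower (1.85% and 2.5% of 11872 genes), and against NeuroD2 1 was lower, Dll4, and 0 higher (2.15% and 0.843% of 11980 genes). The chimera was above MyoD for these genes by 5.50-fold (4.01 to 7.70), 12.5-fold (7.28 to 23.4), 9.86-fold and 4.76-fold (4.03 to 5.65), and below NeuroD2 by 2.83-fold (2.45 to 3.27), 6.71-fold (5.74 to 7.89), 2.34-fold and 1.47-fold (1.35 to 1.61). Outside the range of the 2 factors, Dll1 was above both, and Hes6 was below both, 2.16-fold lower than in MyoD (2.01 to 2.33) and 1.26-fold lower than in NeuroD2 (1.16 to 1.36). Myod1 was lower in the chimera than in MyoD, and Neurod2 was lower in the chimera than in NeuroD2. The chimera holds only part of each factor, so these counts do not show whether less of it was delivered. Construct and its level thus cannot be told apart in these ratios. The chimera and NeuroD2 were alike in the Rn7s6 split, and MyoD and GFP lay on its other side. The chimera ratios to MyoD and GFP therefore cross the split, and its part in them was not tested.

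The remaining libraries were also set against the same GFP library. WC and WCS each carried 7 of 10 members above the size rule, namely Dll1, Dll3, Dll4, Notch1, Mfng, Hes5 and Hey1, where 3.35% of 11897 and 3.32% of 11895 genes were higher. No member was lower in either, against 0.79% and 1.18% of genes. At MOI 100 the chimera carried the same list without Dll3, 6 of 10, where 6.87% of 12206 genes were higher, and 0 members were lower, where 3.2% of genes were. WCS at MOI 100 carried 7 higher, where 6.97% of 12199 genes were, and 1 lower, Hes1, where 3.83% of genes were. The largest ratio in these libraries was that of Hes5 in WCS, 174-fold (105 to 312), against 15 counts in GFP.

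The mutants were compared with the chimera to ask how the Notch genes differ from it. Without an MOI label, 1 of 10 members, Dll3, met the size rule in each mutant, being 4.62-fold higher in WC (4.04 to 5.30) and 4.70-fold higher in WCS (4.11 to 5.39), where 0.617% and 0.778% of 11826 genes were higher. Mfng was higher too, by 2.36-fold in WC (2.23 to 2.49) and by 2.72-fold in WCS (2.58 to 2.87). Hey1 went the other way, 2.35-fold lower in WC (2.13 to 2.61) and 1.96-fold lower in WCS (1.78 to 2.17). Notch1 was lower by 1.47-fold in WC (1.42 to 1.52), and by 1.45-fold in WCS (1.40 to 1.51). No member was 4-fold lower, against 0.744% and 0.989% of genes.

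At MOI 100 no member met the size rule between WCS and the chimera, where 0.759% of 11988 genes were higher and 1.58% lower. The ratios kept their side of 1 for Dll3 (1.74-fold higher, 1.51 to 2.02), Dll4 (2.41-fold, 2.16 to 2.68), Mfng (1.91-fold, 1.82 to 2.001) and Hes5 (1.43-fold, 1.30 to 1.58). Hey1 was 2.30-fold lower (2.14 to 2.47), Notch1 1.95-fold (1.89 to 2.02) and Dll1 1.68-fold (1.62 to 1.74). Both libraries at MOI 100 lie on the low side of the Rn7s6 split (1.21 and 1.28 CPM), whereas WC and WCS lie opposite the chimera without an MOI label. The Dll3 ratio of WCS to the chimera was 4.70 without an MOI label and 1.74 with it. Between WC and WCS 0 of 10 members met the size rule, where 0.0172% of 11626 genes were higher and 0.0086% lower in WC. Beyond counting error 4 members were lower in WC, with ratios to WCS of 0.689 for Hes5 (0.642 to 0.739), 0.787 for Dll4 (0.682 to 0.907), 0.834 for Hey1 (0.744 to 0.935) and 0.866 for Mfng (0.833 to 0.900).

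**Figure D3:**
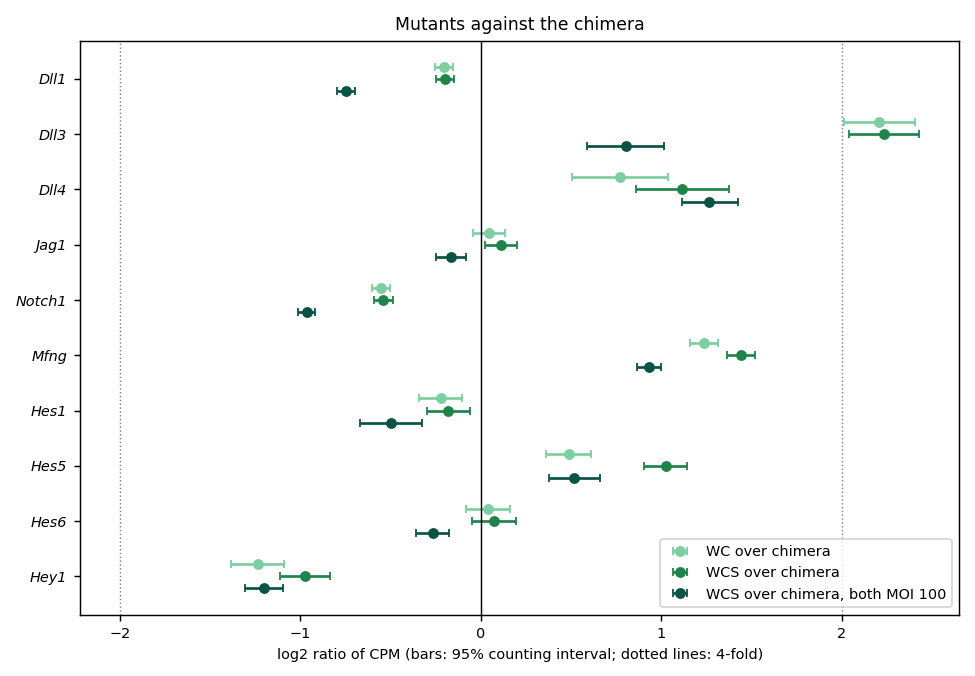
Log2 ratio of CPM over the chimera for WC, WCS and, against the chimera at MOI 100, WCS at MOI 100 (points, 1 library each), with 95% counting intervals and dotted lines at 4-fold. Dll3, Dll4, Mfng and Hes5 lie right of 0 in all 3 comparisons, Dll1, Notch1, Hes1 and Hey1 lie left of it in all 3, and only Dll3 passes the dotted line.

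A single test was possible in the 4 libraries of chimera and WCS, where construct crosses MOI label. By quasi-likelihood fits in edgeR, with Benjamini-Hochberg adjusted p over 16079 genes, 6 of 10 members changed with construct, where 11.3% of genes did (5.84% higher in WCS and 5.49% lower). In WCS 4 rose: Dll3 by 1.53 on the log2 scale (adjusted p = 0.025), Dll4 by 1.20 (adjusted p = 0.0064), Mfng by 1.19 (adjusted p = 0.0028) and Hes5 by 0.78 (adjusted p = 0.022). Hey1 fell by 1.09 (adjusted p = 0.0029) and Notch1 fell by 0.75 (adjusted p = 0.016). Dll1, at -0.47 (adjusted p = 0.10), Hes1, at -0.33 (adjusted p = 0.23), Hes6, at -0.10, and Jag1, at -0.02, did not pass. Members rose and fell alongside, so their median was -0.06, beside -0.01 over all genes. The fit leaves 1 residual degree of freedom, so its p-values set the construct difference against how far it differed between the MOI labels, with a spread that edgeR shares across genes. A called gene need not differ equally at both: the log2 ratio of Dll3 was 2.18 without the label and 0.77 with it, and that of Hes5 1.01 and 0.51. It holds no measure of how cultures vary. No member passed in the same tool without the MOI term (4 at an unadjusted p under 0.05), nor, also without that term, when the chimera, the chimera at MOI 100, WCS or WCS at MOI 100 was left out (4, 3, 2 and 4 at an unadjusted p under 0.05). Over these 4 fits the log2 change ran from 0.80 to 2.25 for Dll3, from 0.36 to 2.005 for Dll4, from 0.31 to 1.21 for Hes5 and from -1.46 to -0.63 for Hey1.

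The MOI label changed 5 of 10 members in the same fit, where 25.5% of genes changed (13.4% higher at MOI 100 and 12.2% lower). Dll4 rose by 1.34 on the log2 scale (adjusted p = 0.0036), as did Hes6 and Hey1, each by 0.72 (adjusted p = 0.010 and 0.0098). Hes1 fell by 1.11 (adjusted p = 0.0039) and Hes5 fell by 0.66 (adjusted p = 0.023). Dll4 and Hes5, both raised in WCS, thus moved apart with the MOI label. By the size rule 0 members differed within the chimera (0.948% of 11918 genes higher and 0.26% lower) or within WCS (0.93% of 11931 genes higher and 0.603% lower). Within the chimera Dll4 was 2.40-fold higher at MOI 100 (2.02 to 2.87) and within WCS 2.67-fold (2.39 to 2.99), and Hes5 was 1.32-fold (1.19 to 1.46) and 1.88-fold (1.74 to 2.02) lower. Dll3 did not pass (-0.77, adjusted p = 0.12), being level in the chimera (0.989, 0.832 to 1.18) and 2.73-fold lower in WCS at MOI 100 than in WCS (2.46 to 3.02). The WCS pair spans the Rn7s6 split and the chimera pair does not, and the part of the split in these values was not tested. The neuron marker sum was also higher at MOI 100, going from 680 to 2282 CPM in the chimera and from 1852 to 4319 CPM in WCS.

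Levels of different genes were set side by side as CPM per kilobase of merged exons. Among 5 ligand genes, with Jag2 added, Jag2 held the largest share in GFP at 42.0% and Dll1 32.0%. Dll1 held the largest share in all 7 other libraries, from 44.4% in NeuroD2 to 74.2% in the chimera. NeuroD2 had the most mixed ligand set, with 13.8% Dll3, 16.9% Dll4 and 18.7% Jag1. Dll3 took 18.1% in WC and 18.0% in WCS but 4.25% in the chimera. The summed ligand level went from 24.8 CPM per kilobase in GFP to 48.9 in MyoD and 69.8 to 92.6 in the other 6.

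Notch1 was a minor receptor in GFP, with 14.8% of the summed level of the 4 receptor genes against 50.1% for Notch2 and 34.1% for Notch3. In NeuroD2 it held 57.6%, in the chimera at MOI 100 66.4% and in WCS at MOI 100 59.9%, and in MyoD 21.7%. Among 6 Hes and Hey genes Hes1 held 74.2% in GFP, and Hes6 led in MyoD with 51.5%. Hes5 led in NeuroD2 (36.6%), WC (41.2%) and WCS (49.3%), while Hes6 led in both libraries at MOI 100 (39.7% in the chimera, 42.1% in WCS). In the chimera without an MOI label Hes5 (28.6%), Hes6 (26.4%) and Hes1 (26.4%) lay close together. Mfng went from 8.04% of the 3 fringe genes in GFP and 8.39% in MyoD to 67.2% in WCS at MOI 100.

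**Figure D4:**
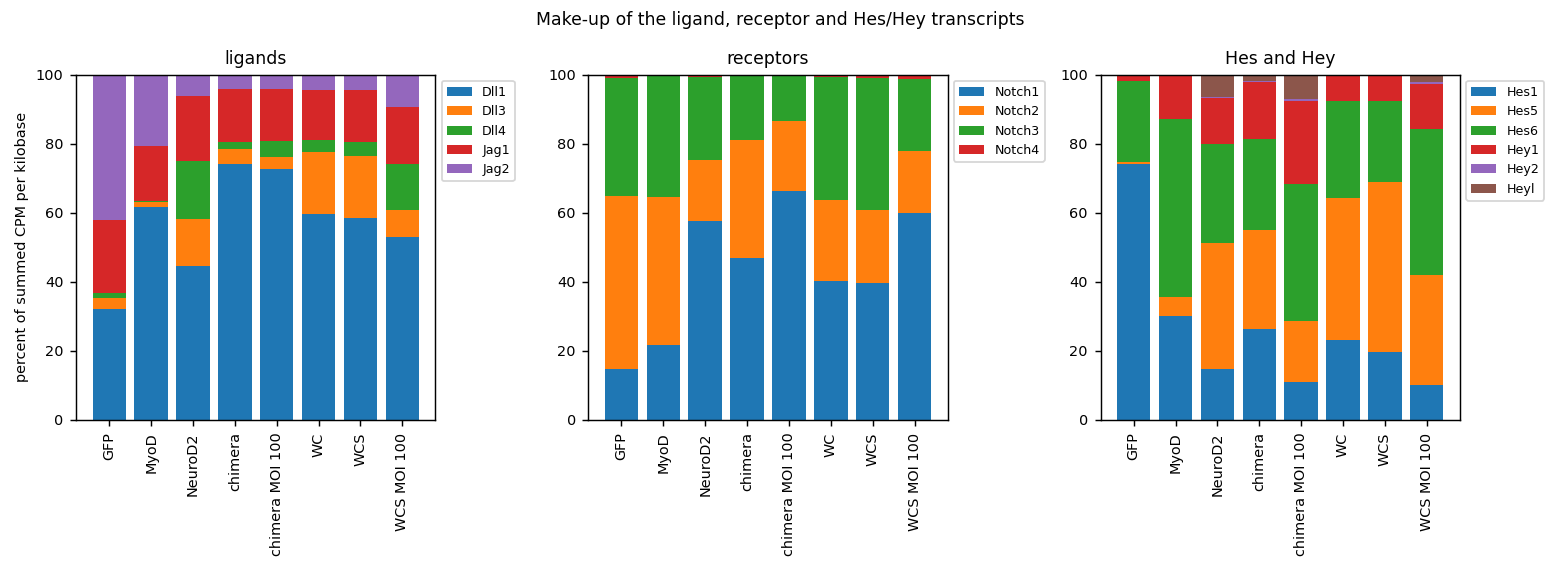
Share of each gene in the summed CPM per kilobase of 5 ligand, 4 receptor and 6 Hes and Hey genes in each library (stacked bars, percent). Dll1 takes the largest ligand share in every library but GFP, Notch1 grows from 14.8% in GFP to 66.4% in the chimera at MOI 100, and Hes1 shrinks from 74.2% in GFP to 9.99% in WCS at MOI 100.

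Beyond the members, 46 further Notch pathway genes were read. By the size rule in MyoD over GFP, 1 of 38 was higher (Neurl1a) and 2 lower (Bhlhe40 and Bhlhe41), where 3.63% and 1.21% of all genes were. In NeuroD2 over GFP 3 of 39 were higher (Dner, Heyl and Nrarp) and the same pair lower, against 5.61% and 2.05% of all genes. In the chimera over GFP 3 of 38 were higher (Psen2, Heyl and Nrarp) and 0 lower, against 2.84% and 0.945%. Nrarp, a feedback inhibitor of Notch, was named after its values were seen. Their median log2 ratios were 0.20, 0.18 and 0.22, beside -0.02, 0.00 and 0.01 over all genes tested. The widest range belonged to Heyl, a Hey1 relative, at 0.0730 CPM (3 counts) in GFP, 0.499 in MyoD, 30.7 in NeuroD2, 7.61 in the chimera, 36.3 in the chimera at MOI 100, 0.963 in WC, 0.883 in WCS and 8.18 in WCS at MOI 100. Heyl and Hey1 thus were both highest in the chimera at MOI 100, and both were lower in the mutants than in the chimera library with the same MOI label. Dner, a non-canonical Notch ligand of neurons, stood at 147 CPM in NeuroD2 and 115 CPM in WCS at MOI 100 and at 3.01 to 15.1 CPM elsewhere. Bhlhe41 and Bhlhe40, bHLH repressors related to the Hes family, were highest in GFP at 81.2 and 56.0 CPM and lowest in NeuroD2 at 5.07 CPM and in WCS at MOI 100 at 4.86 CPM.

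In the 4-library test 11 of 45 wider genes changed with construct in edgeR's test, 5 up and 6 down in WCS, where 11.3% of all genes changed (5.84% higher and 5.49% lower). Psen2, a presenilin of the gamma-secretase that cleaves Notch, fell by 2.17 on the log2 scale (adjusted p = 0.00039), Neurl1a, a ubiquitin ligase for ligands, by 1.76 (adjusted p = 0.0012), Heyl by 2.51 (adjusted p = 0.0022), Notch2 by 0.98 (adjusted p = 0.0023) and Bhlhe41 by 1.24 (adjusted p = 0.022). Dner rose by 2.71 on that scale (adjusted p = 0.00043), Maml3, a coactivator of the Notch complex, by 0.76 (adjusted p = 0.018) and Dtx4, a ubiquitin ligase of Notch, by 0.52 (adjusted p = 0.024). Psen2 stood at 64.3 and 98.1 CPM in the chimera libraries against 17.0 and 18.4 CPM in WCS. Without the MOI term 0 passed in that tool (6 at an unadjusted p under 0.05). Leaving out the chimera gave 1 (Psen2), and leaving out the chimera at MOI 100, WCS or WCS at MOI 100 gave 0 (5, 6 and 6 at an unadjusted p under 0.05).

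The genes of most similar pattern were sought among 11645 named genes by the root mean square difference of centred log2(CPM + 0.5) over the 8 libraries, as a description. Dll4 lay closest to Trim9, a neuronal ubiquitin ligase, at 0.23, beside its own spread of 1.796, with Rtn1 next at 0.33. Mfng lay closest to Tspan11 (0.36, own spread 1.92) and the nicotinic receptor subunit gene Chrnb4 (0.41). Notch1 lay closest to Galnt18 (0.23, own spread 0.97) and Chrna4 (0.28), and Dll1 to Irx3os (0.27, own spread 0.91) and Gadd45g (0.32). Hes6 lay closest to Rbfox2, a splicing factor of muscle and neurons (0.11, own spread 0.58), and Plxna1 (0.12), and Hes1 to Dse and Pkn3 (both 0.11, own spread 0.66). Hey1 had Zbtb18 (0.37, own spread 1.25) and Rgs16 (0.38), and Jag1 had Fam172a (0.11, own spread 0.46) and Ikbkb (0.12). Dll3 and Hes5 had the least close neighbours, Ntn1 (0.47, own spread 1.57) and Kcnk9 (0.48) for Dll3 and Tspan11 and Fabp7 (both 0.68, own spread 1.92) for Hes5. Fabp7 is a fatty acid-binding protein of neural progenitors.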

How the data were processed

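The authors deposited whole-number counts for each Ensembl gene in each library, not normalized. Per the submitters' processing notes, CASAVA 1.8.2, TopHat2 2.0.8 and the mm9 build were used. How reads were counted, with which annotation and strand setting, is not stated in the available sources. Symbols were matched by identifier to GENCODE M21 (GRCm38) for 32850 of 37558 genes, and merged exon lengths and overlaps come from that newer build, whereas promoters come from RefSeq on GRCm38.p6. Totals of 26410500 to 43984066 counts gave 14 to 9931 counts per member and library. TMM factors (0.935 to 1.09) and edgeR 4.0.16 were run on all genes in R 4.3.3. The 4-library fit used construct and MOI label after filterByExpr, with an adjusted p threshold of 0.05. On simulated data it recovered 97% of 100 genes changed 2-fold between WCS and chimera and 100% of 100 changed 4-fold, with 4 false calls among 16104 genes. The simulation gave every gene the same dispersion, with no MOI effect and the same construct effect at both MOI labels. It therefore does not show how the fit performs on the real libraries. Ratios carry exact conditional binomial (Clopper-Pearson) 95% intervals and levels exact Poisson intervals. Reads from PCR are not independent molecules, so both cover counting error only, and the groups had 1 library each.

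The members and lists were chosen with earlier results of these data known. All 10 members were named. Of the wider list the 4 genes with the largest range and the 8 with the smallest p in the 4-library test were named, and for each member the 2 genes of most similar pattern. The sets of genes used for shares were chosen after their values were seen. Other marker lists were low: 6 glia markers summed to 4.55 to 16.0 CPM and 6 presomitic mesoderm markers, of which Hes7 is also in the wider Notch list, to 2.45 to 18.8 CPM. The 5 neural progenitor markers measured, with Sox1 not analysed here, summed to between 213 CPM in GFP and 573 CPM in MyoD. Nes made up most of the MyoD sum, at 474 CPM. The markers did not move together: Olig2 was at 0.192 CPM in MyoD and 48.9 in NeuroD2, and Sox3 at 85.5 in GFP and 23.1 in NeuroD2. Alternatives were a pseudocount of 2 CPM, a 2-fold threshold, scaling by the total of gene counts, no minimum CPM, DESeq2 1.42.0 size factors and its Wald test, no filter, no MOI term and leaving out each of the 4 libraries. Other values were computed in Python 3.11.15 with scipy 1.17.1.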

Additional observations from a re-analysis of the deposited data

Results flagged for a closer look

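Several members moved in opposite directions under the same contrast, each by more than counting error. Each direction rests on 1 pair of libraries and the differences between pairs were not tested. With the MOI 100 label Dll1 was higher in the chimera (ratio 1.13) and lower in WCS (ratio 0.771). Notch1 was likewise higher in the chimera (ratio 1.29) and at 0.960 in WCS, and Mfng was at 1.36 and 0.957. Scaled by total gene counts, both Notch1 and Mfng were instead higher at MOI 100 in WCS too, at log2 ratios of 0.0728 and 0.0682, so their opposite directions depend on the scaling. Jag1 was slightly higher in WCS than in the chimera without an MOI label (ratio 1.08) and lower at MOI 100 (ratio 0.893). Dll4 was below GFP in MyoD (ratio 0.345) and above it in NeuroD2 (ratio 29.1), a contrast in which both ratios share the GFP library.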

How the results depend on the processing

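For counts of members meeting the size rule, DESeq2 size factors, total gene counts and no minimum level kept every count within 1.5 times. A pseudocount of 2 CPM left 1 member in MyoD over GFP in place of 2, with Hes5 lost. A 2-fold threshold gave 5 members in MyoD over GFP, 10 in NeuroD2 over GFP, 8 in the chimera over GFP, 3 in WC over the chimera, 4 in WCS over the chimera and 2 in WCS over the chimera at MOI 100. In the 4-library test DESeq2's Wald test, DESeq2 size factors and no filter each called 6 members for construct, 5 for the MOI label and 10 or 11 wider genes for construct. Without the MOI term, 0 members and 0 wider genes passed in edgeR (4 and 6 at an unadjusted p under 0.05). Leaving out 1 library, which also drops the MOI term and so leaves fewer samples, gave 0 to 0 members and 0 to 1 wider genes. Then the log2 changes of the 6 called members kept their signs, with ranges of 0.80 to 2.25 for Dll3, 0.36 to 2.005 for Dll4, 0.31 to 1.21 for Hes5, 0.98 to 1.42 for Mfng, -1.46 to -0.63 for Hey1 and -0.92 to -0.56 for Notch1. Of the 4 uncalled members Dll1 kept its sign and 3 turned. Over the 4 fits Jag1 ran from -0.12 to 0.0865, Hes1 from -1.05 to 0.28 and Hes6 from -0.50 to 0.38. Jag1 was at 0.0865 without the chimera at MOI 100 and 0.01 without WCS at MOI 100, Hes1 at 0.28 without the chimera and 0.22 without WCS at MOI 100, and Hes6 at 0.38 without the chimera at MOI 100 and 0.12 without WCS. With total gene counts the log2 ratio of WCS at MOI 100 over WCS turned to 0.0728 for Notch1 and 0.0682 for Mfng, and the cause was not tested. No paired analysis was possible because each group had 1 library. Counts limit Dll4 in MyoD (14) and Hes5 in GFP (15) most.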
